A study of Mus musculus with 14 samples.

Results

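Cell division in microglia was described through 57 genes of mitosis, the stage at which duplicated chromosomes are attached to a spindle, separated and sorted into daughter cells. The genes were listed by function: regulators of mitotic entry, the spindle checkpoint, the kinetochore, the chromosomal passenger complex, other mitotic kinases, the spindle, cytokinesis, sister chromatid cohesion, and condensin with other chromosome proteins. These make 9 subgroups. A gene was measured where the array had a row annotated to that gene symbol and to no other, and where several rows did so the row with the highest mean was taken. Of the 57 genes, 56 had such a row, out of 19938 genes on the array with one. The cyclin B gene Ccnb1 was the exception and was not analysed here.

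In mitosis, Cdk1 bound to a cyclin starts chromosome condensation and spindle assembly. Kinetochores, protein assemblies built on centromeric chromatin, hold the chromosomes to spindle microtubules, and the spindle checkpoint keeps the anaphase-promoting complex (APC/C) in check until each kinetochore is attached. Separase then cuts cohesin, the spindle pulls the chromatids apart, and a contractile ring divides the cell. Most of these genes are transcribed in G2 and M phase, and their transcripts are scarce in resting cells. Adult microglia divide slowly in the healthy brain and are known to proliferate after brain injury, ischaemia included.

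RNA of microglia sorted from the cortex on the operated side was hybridised to Affymetrix Mouse Gene 1.0 ST arrays. All mice were C57BL/6J males aged 12 to 14 weeks, either TLR4-/-, without the innate immune receptor Toll-like receptor 4, or wild type. They had undergone ischaemia and reperfusion (I/R), in which a filament blocked the middle cerebral artery for 15 min under isoflurane and blood flow then returned for 72 h, or sham surgery under the same anaesthetic. This gave 4 groups. TLR4-/- mice contributed 3 arrays after I/R (lettered B, C, D) and 3 after sham surgery (lettered A, B, D), while wild-type mice contributed 4 arrays (lettered A, B, C, D) per operation. The labels state neither how the TLR4-/- allele was made nor which markers served for the sort, and they leave the abbreviation IPC in the titles of the I/R samples unexplained. Since they also do not say that each sample was a different mouse, the p-values refer to the spread among samples, part of which may be technical.

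Values are log2 signals, so a difference of 1 is a 2-fold change. Array medians lay between 4.93 and 5.12. The 95th percentile of 1027 olfactory receptor genes, 4.67, stood in for background, and a fold change against a group mean at or below it is a comparison with background signal. Tlr4 itself gave signals of 7.62 to 8.47 on the 6 TLR4-/- arrays and 8.14 to 8.92 on the 8 wild-type arrays, with overlap after I/R and none after sham surgery (8.15 to 8.47 in TLR4-/-, against 8.57 to 8.92 in wild type; log2 difference -0.46, unadjusted p = 0.0105, adjusted p = 0.920 in limma). The row was thus far above background in TLR4-/- microglia, and whether its probes lie in the deleted part of the gene is not known here. By correlation over all genes, array D of TLR4-/- I/R and array C of wild-type sham correlated more highly with each array of the other genotype after the same operation than with any of their own group. Arrays B and C of TLR4-/- I/R and arrays A and D of wild-type sham leaned the same way, with ranges that overlapped. Of 10 microglia markers 9 had a row, with list means of 10.85 to 11.45 on all arrays.

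RefSeq promoter sequence (GRCm38.p6), 250 bases before to 50 after a transcription start, was found by symbol for 45 of the 56 genes in 51 windows, since some genes have several starts. Each was searched on both strands for TTTGAA (reverse TTCAAA), the common form of the cell cycle genes homology region to which the DREAM and B-MYB complexes bind, for its variant TTCGAA, and for CCAAT (reverse ATTGG), the element of NF-Y. TTTGAA occurred in 35 of the 51 windows (68.6%), against 17.9% of all 32851 promoter windows. CCAAT occurred in 37 (72.5%), against 37.4% of all windows, and 29 windows (56.9%) held both, against 6.95%. TTCGAA occurred in 4 windows (7.84%), against 1.56%. Within the 120 bases just before the start, TTTGAA lay in 14 of the 51 windows (27.5%, against 7.12% of all windows), CCAAT in 31 (60.8%, against 21.3%), and none of the motifs in 15 (29.4%, against 72.7%). These 120 bases are printed, to show how the motifs lie, for the gene of smallest wild-type p in each subgroup and for the 3 genes called in neither genotype (Espl1, Bub3 and Pttg1), 5′ to 3′ along the gene and with the motifs in capitals. Shcbp1 and Esco2, which led the cytokinesis and cohesion subgroups, had no matched window. They lie upstream of the transcribed region at chr10:69352913-69353032 (minus strand, Cdk1), chr9:83834569-83834688 (plus strand, Ttk), chr1:169531465-169531584 (minus strand, Nuf2), chr11:117849117-117849236 (plus strand, Birc5), chr4:44300797-44300916 (plus strand, Melk), chr11:40733438-40733557 (minus strand, Hmmr), chr7:135716380-135716499 (minus strand, Mki67), chr15:102296173-102296292 (plus strand, Espl1), chr7:131560250-131560369 (plus strand, Bub3) and chr11:43425982-43426101 (minus strand, Pttg1).
Cdk1: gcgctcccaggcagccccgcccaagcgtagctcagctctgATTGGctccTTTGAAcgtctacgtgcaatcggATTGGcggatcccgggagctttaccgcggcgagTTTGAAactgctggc
Ttk: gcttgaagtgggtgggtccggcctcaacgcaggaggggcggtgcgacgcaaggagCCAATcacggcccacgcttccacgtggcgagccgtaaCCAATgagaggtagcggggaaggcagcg
Nuf2: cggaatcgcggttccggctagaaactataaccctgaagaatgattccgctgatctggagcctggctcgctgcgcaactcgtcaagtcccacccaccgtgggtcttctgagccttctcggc
Birc5: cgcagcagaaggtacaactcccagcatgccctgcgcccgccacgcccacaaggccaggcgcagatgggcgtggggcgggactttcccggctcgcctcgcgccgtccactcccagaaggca
Melk: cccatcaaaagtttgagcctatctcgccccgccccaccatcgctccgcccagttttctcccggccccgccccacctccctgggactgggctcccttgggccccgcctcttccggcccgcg
Hmmr: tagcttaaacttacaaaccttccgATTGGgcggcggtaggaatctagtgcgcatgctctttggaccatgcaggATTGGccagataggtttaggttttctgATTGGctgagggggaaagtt
Mki67: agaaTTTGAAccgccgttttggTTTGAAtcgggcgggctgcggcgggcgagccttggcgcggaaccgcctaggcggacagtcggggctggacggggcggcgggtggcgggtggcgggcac
Espl1: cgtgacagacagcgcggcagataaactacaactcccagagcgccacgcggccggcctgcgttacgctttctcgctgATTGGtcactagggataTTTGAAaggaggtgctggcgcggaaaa
Bub3: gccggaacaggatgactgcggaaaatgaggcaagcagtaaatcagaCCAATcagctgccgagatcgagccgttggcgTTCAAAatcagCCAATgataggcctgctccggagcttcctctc
Pttg1: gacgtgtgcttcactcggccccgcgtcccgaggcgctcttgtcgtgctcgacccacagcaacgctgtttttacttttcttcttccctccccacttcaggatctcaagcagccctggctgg
Capitals mark matches on either strand. Among the genes shown that rose, the stretch of Cdk1 held TTTGAA and CCAAT, and that of Mki67 held TTTGAA alone. The stretches of Ttk and Hmmr held CCAAT alone, and those of Nuf2, Birc5 and Melk held none of the motifs. Espl1 and Bub3 held both TTTGAA and CCAAT, in either orientation, and Pttg1 held none. A second Bub3 start lies downstream of the one shown, and the 120 bases before it held none. Outside the printed bases, the searched windows of Ttk and Hmmr also held TTTGAA, at positions 7 and 8 after the start. That of Mki67 also held CCAAT, at -188, -166 and -141. A match of letters describes the sequence and does not show that a factor binds it.

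After I/R nearly all of the 56 mitotic genes were higher in both genotypes. In limma (adjusted p under 0.05) 52 of the 56 genes rose in TLR4-/- and 53 in wild type, none fell in either genotype, and the 52 were called in both. Over all 19938 genes 5.04% were called higher in TLR4-/- and 6.15% in wild type. The genes were listed with earlier results of these data known, so shares over all genes do not test the set. The median log2 change of the 56 genes was 2.09 in TLR4-/- and 2.54 in wild type, beside medians of -0.03 and -0.06 over all genes. At least 2-fold rises were seen in 49 genes in TLR4-/- and 52 in wild type, at least 4-fold rises in 30 and 43, and at least 8-fold rises in 8 and 17, while 2.34% of all genes in TLR4-/- and 2.38% in wild type were 2-fold or more higher. The I/R and sham arrays did not overlap for 53 genes in each genotype, against 11.1% of all genes in TLR4-/- and 7.78% in wild type that were higher on each I/R array. The mean of the 56 genes lay between 7.07 and 7.18 on the TLR4-/- I/R arrays, against 4.86 to 5.21 on the TLR4-/- sham arrays, and between 7.53 and 7.91 on the wild-type I/R arrays, against 4.80 to 5.24 on the wild-type sham arrays. Without the arrays that stood apart by correlation (TLR4-/- I/R D and wild-type sham C) 51 genes rose in TLR4-/- and 53 in wild type, with medians of 2.09 and 2.45. Changes of single genes are log2 differences ± SE, and mean signals of a subgroup are ± SD over the arrays (n = 3 in each TLR4-/- group and n = 4 in each wild-type group). In bulk RNA more dividing cells and more transcript per cell cannot be told apart.

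**Figure D1:**
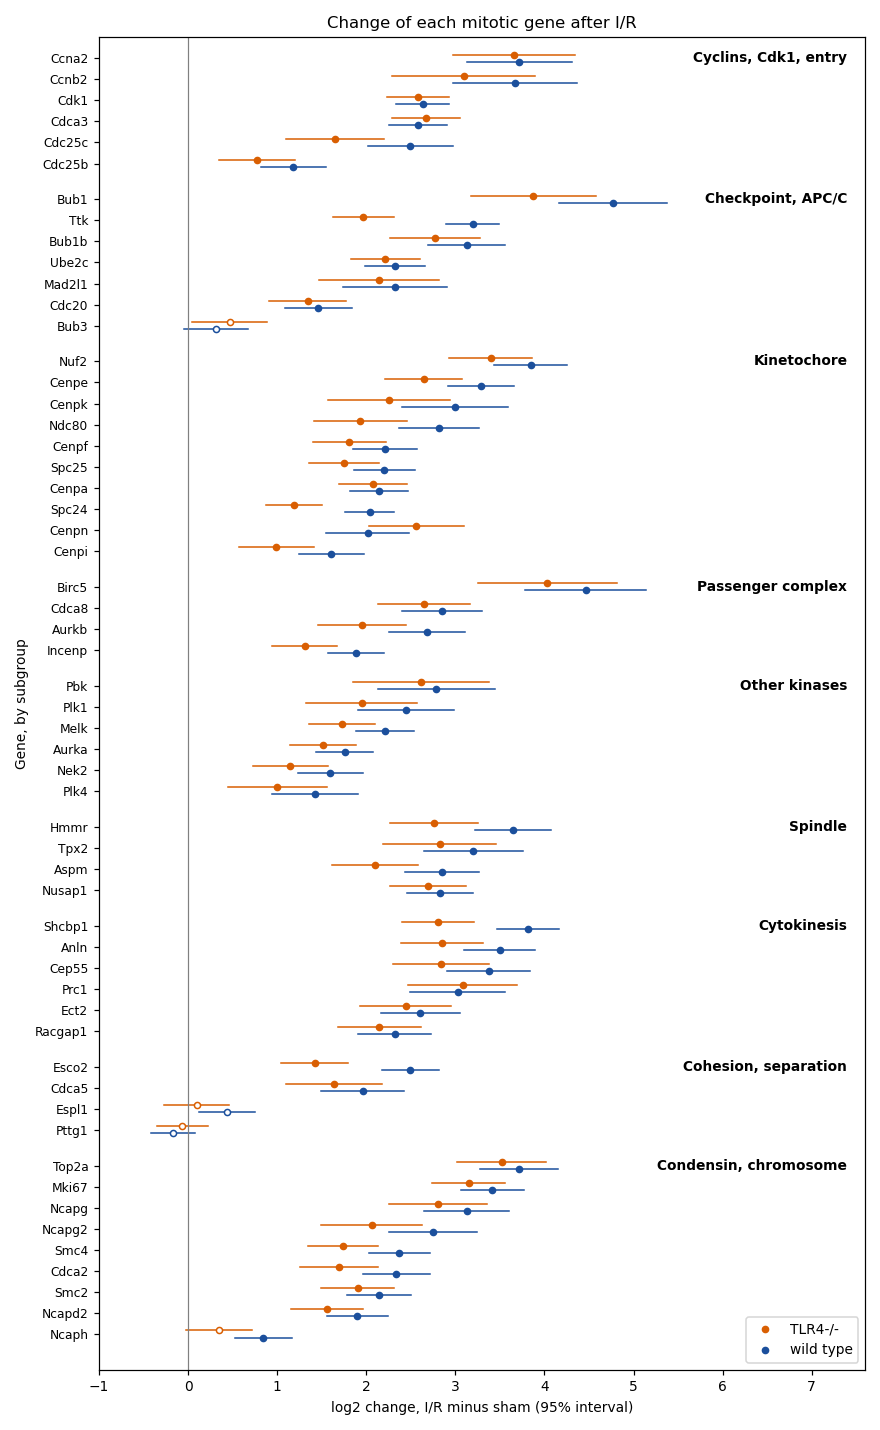
Log2 change after I/R with its 95% interval for each of the 56 genes, by subgroup, in TLR4-/- (orange, upper point) and wild type (blue, lower point); filled points passed the test and open points did not. Most points lie between 1 and 4, and the open ones are Bub3, Espl1 and Pttg1 in both genotypes and Ncaph in TLR4-/-.

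After sham surgery some of these transcripts were not distinguishable from background. The sham mean was at or below the background stand-in for 21 genes in TLR4-/- and 20 in wild type, 19 of them in both, and no gene was at or below it in either I/R group. By subgroup these were, in each genotype, 5 of 10 kinetochore genes, 4 of 6 cytokinesis genes, 2 of 4 cohesion genes, 2 of 7 checkpoint genes, 2 of 9 condensin and chromosome genes, 1 of 6 entry genes and 1 of 4 passenger complex genes. The 4 spindle genes had 4 in TLR4-/- and 3 in wild type, and the other kinases had none. Such low signals were common on the array. By the mean over all 14 arrays, 7405 of the 19938 genes were at or below the stand-in. The share of all genes in the sham groups alone was not counted, so the sham counts do not set the mitotic genes apart from others.

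Mitotic entry was represented by 6 measured genes, which all rose in both genotypes, by a median of 2.62 in TLR4-/- and 2.61 in wild type. Averaged over the subgroup, the signal was 7.52 ± 0.14 after I/R, against 5.12 ± 0.05 after sham surgery in TLR4-/-, and 7.90 ± 0.11 after I/R, against 5.19 ± 0.33 after sham surgery in wild type. Cdk1 is the kinase that drives entry into mitosis. The log2 signal of Cdk1 was 8.03, 7.87 and 8.28 on the TLR4-/- I/R arrays, against 5.27, 5.60 and 5.58 on the TLR4-/- sham arrays. On wild-type arrays it was 8.53, 8.25, 8.17 and 8.30 after I/R, against 5.57, 5.95, 5.35 and 5.84 after sham surgery. The I/R arrays lay above the sham arrays with no overlap in either genotype. The rise was 2.58 ± 0.16 in TLR4-/- (5.96-fold, adjusted p = 7.03e-08) and 2.63 ± 0.14 in wild type (6.20-fold, adjusted p = 2.69e-09). Cdca3, which marks the Cdk1 inhibitor Wee1 for degradation, rose as well. Cdca3 read 7.24, 7.80 and 7.63 in TLR4-/- microglia after I/R, against 4.81, 4.85 and 4.98 after sham surgery. In wild-type microglia Cdca3 read 7.99, 7.76, 7.88 and 7.80 after I/R, against 5.52, 5.47, 4.77 and 5.36 after sham surgery. Its I/R and sham arrays were also apart, with sham array C the lowest of the wild-type sham arrays. Cdca3 thus rose 6.38-fold in TLR4-/- (log2 change 2.67 ± 0.18, adjusted p = 9.23e-08) and 5.98-fold in wild type (log2 change 2.58 ± 0.16, adjusted p = 8.64e-09). Ccna2, cyclin A2, rose by 3.66 in TLR4-/- and 3.72 in wild type (adjusted p = 1.28e-06 and 8.87e-08). Ccnb2, cyclin B2, rose by 3.09 in TLR4-/- and 3.67 in wild type (adjusted p = 4.38e-05 and 7.78e-07). The 2 phosphatases that activate Cdk1 had the smallest changes of the subgroup. Cdc25c, one of them, rose by 1.65 in TLR4-/- and 2.49 in wild type (adjusted p = 6.10e-04 and 8.79e-07). Cdc25b, the other, rose by 0.77 in TLR4-/- and 1.18 in wild type (adjusted p = 0.0232 and 1.96e-04). The TLR4-/- call of Cdc25b was lost without TLR4-/- I/R array D (adjusted p = 0.106) and without TLR4-/- sham array A (adjusted p = 0.111).

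In the checkpoint and APC/C subgroup 6 of 7 genes rose in each genotype, with a median of 2.14 in TLR4-/- and 2.32 in wild type. The mean signal of these genes was 7.63 ± 0.15 after I/R, against 5.52 ± 0.29 after sham surgery in TLR4-/-, and 8.05 ± 0.20 after I/R, against 5.55 ± 0.18 after sham surgery in wild type. Ttk (Mps1) is the kinase that starts checkpoint signalling at unattached kinetochores. On the TLR4-/- arrays Ttk stood at 6.15, 6.15 and 6.34 after I/R, against 4.05, 4.37 and 4.32 after sham surgery. The wild-type arrays gave 7.41, 6.91, 6.81 and 6.90 after I/R, against 3.82, 3.70, 3.63 and 4.10 after sham surgery. I/R and sham arrays did not overlap in either genotype, and the wild-type I/R arrays were all above the TLR4-/- I/R arrays. The rise was 1.97 ± 0.16 in TLR4-/- (3.91-fold, adjusted p = 5.73e-07) and 3.20 ± 0.14 in wild type (9.17-fold, adjusted p = 5.36e-10). Bub1, a checkpoint kinase at the kinetochore, had the largest change in wild type among the 56 genes. Bub1 read 7.71, 7.65 and 7.72 in TLR4-/- microglia after I/R, against 3.65, 3.26 and 4.54 after sham surgery. In wild-type microglia Bub1 read 8.72, 7.86, 8.26 and 8.27 after I/R, against 3.78, 3.76, 2.55 and 3.95 after sham surgery. Its sham values were all below the background stand-in, and wild-type sham array C was lowest. Bub1 thus rose 14.7-fold in TLR4-/- (log2 change 3.87 ± 0.33, adjusted p = 9.42e-07) and 27.2-fold in wild type (log2 change 4.77 ± 0.29, adjusted p = 8.64e-09). Bub1b, the BubR1 component of the checkpoint complex, rose by 2.77 in TLR4-/- and 3.13 in wild type (adjusted p = 9.5e-07 and 1.98e-08). Mad2l1, the Mad2 protein that holds Cdc20 inactive, rose by 2.14 in TLR4-/- and 2.32 in wild type (adjusted p = 3.39e-04 and 2.08e-05). Cdc20, the APC/C activator, rose by 1.34 in TLR4-/- and 1.46 in wild type (adjusted p = 4.25e-04 and 2.52e-05). Ube2c, the ubiquitin-conjugating enzyme that works with the APC/C, rose by 2.21 in TLR4-/- and 2.32 in wild type (adjusted p = 5.67e-07 and 2.71e-08).

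Bub3, which brings Bub1 and BubR1 to the kinetochore, was the exception in that subgroup. Signals of 8.69, 8.70 and 8.80 were measured for Bub3 after I/R in TLR4-/-, against 8.10, 8.13 and 8.55 after sham surgery. Wild-type signals were 8.82, 8.87, 8.67 and 8.70 after I/R, against 8.89, 8.35, 7.89 and 8.69 after sham surgery. It was well above background in all 4 groups, and its TLR4-/- I/R arrays stood just above the sham arrays while the wild-type arrays overlapped. The log2 change was 0.47 ± 0.20 in TLR4-/- (adjusted p = 0.187) and 0.31 ± 0.17 in wild type (adjusted p = 0.306), and neither passed the test.

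All 10 kinetochore genes rose in both genotypes, by a median of 2.0 in TLR4-/- and 2.21 in wild type. Averaged over the subgroup, the signal was 6.62 ± 0.07 after I/R, against 4.56 ± 0.19 after sham surgery in TLR4-/-, and 7.21 ± 0.18 after I/R, against 4.69 ± 0.17 after sham surgery in wild type. Nuf2 is a subunit of the NDC80 complex, the main microtubule attachment of the kinetochore. On the TLR4-/- arrays Nuf2 stood at 7.86, 7.84 and 7.83 after I/R, against 5.01, 3.84 and 4.49 after sham surgery. The wild-type arrays gave 8.64, 8.38, 8.34 and 8.59 after I/R, against 4.70, 4.41, 4.46 and 5.0 after sham surgery. The I/R arrays were above each sham array of their genotype. The rise was 3.40 ± 0.22 in TLR4-/- (10.5-fold, adjusted p = 7.71e-08) and 3.84 ± 0.19 in wild type (14.4-fold, adjusted p = 1.22e-09). Cenpe is a kinesin motor that moves chromosomes to the spindle equator. Cenpe read 6.64, 6.61 and 6.07 in TLR4-/- microglia after I/R, against 4.16, 3.51 and 3.72 after sham surgery. In wild-type microglia Cenpe read 7.58, 6.84, 7.01 and 6.94 after I/R, against 3.80, 3.97, 3.66 and 3.79 after sham surgery. Wild-type array A was the highest of the I/R arrays, and the sham arrays of both genotypes were below the background stand-in. Cenpe thus rose 6.25-fold in TLR4-/- (log2 change 2.64 ± 0.20, adjusted p = 2.64e-07) and 9.77-fold in wild type (log2 change 3.29 ± 0.18, adjusted p = 2.54e-09).

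The other 3 subunits of the NDC80 complex differed in the size of their rise. Ndc80, its namesake subunit, rose by 1.94 in TLR4-/- and 2.82 in wild type (adjusted p = 5.81e-05 and 8.87e-08). Spc25, which anchors the complex to the inner kinetochore, rose by 1.75 in TLR4-/- and 2.20 in wild type (adjusted p = 8.89e-06 and 6.19e-08). Spc24, the partner of Spc25, rose by 1.19 in TLR4-/- and 2.04 in wild type (adjusted p = 4.85e-05 and 1.33e-08). Among the centromere proteins, Cenpa, the histone H3 variant that marks centromeres, rose by 2.07 in TLR4-/- and 2.14 in wild type (adjusted p = 1.04e-06 and 5.93e-08). Cenpn, which binds CENP-A nucleosomes, rose by 2.56 in TLR4-/- and 2.02 in wild type (adjusted p = 4.3e-06 and 7.65e-06). Cenpk, a subunit of the constitutive centromere network, rose by 2.25 in TLR4-/- and 3.0 in wild type (adjusted p = 2.40e-04 and 1.29e-06). Cenpi, of the same network, rose by 0.99 in TLR4-/- and 1.61 in wild type (adjusted p = 0.00445 and 6.76e-06). Cenpf, a large outer kinetochore protein, rose by 1.81 in TLR4-/- and 2.21 in wild type (adjusted p = 9.62e-06 and 9.66e-08).

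The chromosomal passenger complex, which corrects faulty attachments and later guides cytokinesis, rose in all 4 subunits, with a median of 2.30 in TLR4-/- and 2.77 in wild type. The mean signal of these genes was 7.84 ± 0.22 after I/R, against 5.36 ± 0.27 after sham surgery in TLR4-/-, and 8.26 ± 0.21 after I/R, against 5.29 ± 0.40 after sham surgery in wild type. Birc5 (survivin) targets the complex to centromeres. The log2 signal of Birc5 was 9.37, 9.87 and 9.72 on the TLR4-/- I/R arrays, against 5.45, 4.96 and 6.46 on the TLR4-/- sham arrays. On wild-type arrays it was 10.21, 9.94, 9.96 and 10.01 after I/R, against 5.69, 5.32, 4.72 and 6.54 after sham surgery. No I/R array overlapped a sham array, although the sham arrays spread widely, from 4.96 to 6.46 in TLR4-/- and from 4.72 to 6.54 in wild type. The rise was 4.03 ± 0.37 in TLR4-/- (16.3-fold, adjusted p = 1.78e-06) and 4.46 ± 0.32 in wild type (22.0-fold, adjusted p = 4.89e-08). Cdca8 (borealin) is another subunit of the complex. On the TLR4-/- arrays Cdca8 stood at 6.95, 6.69 and 7.30 after I/R, against 4.31, 4.48 and 4.22 after sham surgery. The wild-type arrays gave 7.67, 6.89, 7.31 and 7.34 after I/R, against 4.36, 3.88, 4.49 and 5.07 after sham surgery. The I/R arrays of the 2 genotypes overlapped. Cdca8 thus rose 6.25-fold in TLR4-/- (log2 change 2.64 ± 0.24, adjusted p = 2.02e-06) and 7.23-fold in wild type (log2 change 2.85 ± 0.21, adjusted p = 7.56e-08). Aurkb, the catalytic kinase, rose by 1.95 in TLR4-/- and 2.68 in wild type (adjusted p = 3.29e-05 and 8.89e-08). Incenp, which activates Aurkb, rose by 1.31 in TLR4-/- and 1.88 in wild type (adjusted p = 8.19e-05 and 1.51e-07).

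The 6 other mitotic kinases rose in both genotypes, by a median of 1.62 in TLR4-/- and 1.99 in wild type. Averaged over the subgroup, the signal was 7.0 ± 0.12 after I/R, against 5.34 ± 0.14 after sham surgery in TLR4-/-, and 7.34 ± 0.18 after I/R, against 5.31 ± 0.19 after sham surgery in wild type. Melk is a kinase of G2 and M phase. Melk read 6.90, 6.42 and 6.36 in TLR4-/- microglia after I/R, against 4.65, 5.08 and 4.78 after sham surgery. In wild-type microglia Melk read 7.11, 6.66, 6.67 and 7.20 after I/R, against 4.75, 4.60, 4.79 and 4.66 after sham surgery. The sham arrays lay within a narrow range near the background stand-in, and all I/R arrays were above them. The rise was 1.72 ± 0.18 in TLR4-/- (3.30-fold, adjusted p = 5.61e-06) and 2.21 ± 0.15 in wild type (4.63-fold, adjusted p = 3.09e-08). Aurka builds the spindle poles. The log2 signal of Aurka was 7.0, 6.71 and 7.17 on the TLR4-/- I/R arrays, against 5.29, 5.35 and 5.70 on the TLR4-/- sham arrays. On wild-type arrays it was 7.65, 7.20, 7.39 and 7.07 after I/R, against 5.56, 5.50, 5.36 and 5.85 after sham surgery. The I/R arrays were again separate from the sham arrays, and the I/R arrays of the 2 genotypes overlapped. Aurka thus rose 2.85-fold in TLR4-/- (log2 change 1.51 ± 0.17, adjusted p = 2.08e-05) and 3.39-fold in wild type (log2 change 1.76 ± 0.15, adjusted p = 4.34e-07). Plk1, the polo-like kinase of entry, spindle assembly and cytokinesis, rose by 1.95 in TLR4-/- and 2.44 in wild type (adjusted p = 3.86e-04 and 4.82e-06). Pbk, a mitotic kinase, rose by 2.62 in TLR4-/- and 2.79 in wild type (adjusted p = 1.45e-04 and 1.03e-05). Nek2, which separates the centrosomes, rose by 1.15 in TLR4-/- and 1.60 in wild type (adjusted p = 0.00123 and 6.44e-06). Plk4, the kinase of centriole duplication, rose by 1.0 in TLR4-/- and 1.43 in wild type (adjusted p = 0.0258 and 4.49e-04). For Plk4 the TLR4-/- call was lost without TLR4-/- I/R array B (adjusted p = 0.112) and without any 1 of the TLR4-/- sham arrays (adjusted p = 0.0553, 0.0809 and 0.0733 for arrays A, B and D).

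Each of the 4 spindle genes rose, with a median of 2.73 in TLR4-/- and 3.03 in wild type. The mean signal of these genes was 6.62 ± 0.07 after I/R, against 4.02 ± 0.25 after sham surgery in TLR4-/-, and 7.33 ± 0.33 after I/R, against 4.20 ± 0.33 after sham surgery in wild type. Hmmr, a microtubule-associated protein of the spindle and also a hyaluronan receptor, was at background in the sham groups. On the TLR4-/- arrays Hmmr stood at 6.06, 6.07 and 6.0 after I/R, against 3.54, 3.09 and 3.23 after sham surgery. The wild-type arrays gave 7.48, 6.79, 6.72 and 6.88 after I/R, against 3.65, 3.19, 2.73 and 3.71 after sham surgery. The 3 TLR4-/- I/R arrays lay close together and were all below the 4 wild-type I/R arrays. The rise was 2.76 ± 0.23 in TLR4-/- (6.78-fold, adjusted p = 7.35e-07) and 3.65 ± 0.20 in wild type (12.5-fold, adjusted p = 2.96e-09). Nusap1 bundles microtubules around chromosomes. Nusap1 read 7.15, 6.47 and 6.83 in TLR4-/- microglia after I/R, against 4.01, 4.08 and 4.30 after sham surgery. In wild-type microglia Nusap1 read 7.77, 7.24, 6.81 and 7.22 after I/R, against 4.56, 4.38, 4.32 and 4.47 after sham surgery. For Nusap1 the I/R arrays of the genotypes overlapped. Nusap1 thus rose 6.46-fold in TLR4-/- (log2 change 2.69 ± 0.20, adjusted p = 2.15e-07) and 7.09-fold in wild type (log2 change 2.83 ± 0.17, adjusted p = 1.02e-08). Tpx2, the activator of Aurka on spindle microtubules, rose by 2.82 in TLR4-/- and 3.20 in wild type (adjusted p = 9.57e-06 and 2.35e-07). Aspm, a spindle pole protein, rose by 2.10 in TLR4-/- and 2.85 in wild type (adjusted p = 1.1e-05 and 3.29e-08).

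Cytokinesis genes had the largest subgroup medians in both genotypes, 2.83 in TLR4-/- and 3.20 in wild type, and all 6 rose. In 4 of these genes, Shcbp1, Anln, Prc1 and Cep55, the sham means of both genotypes were at or below the background stand-in. Their rises are thus comparisons with background signal. Averaged over the subgroup, the signal was 6.92 ± 0.10 after I/R, against 4.23 ± 0.24 after sham surgery in TLR4-/-, and 7.58 ± 0.24 after I/R, against 4.47 ± 0.26 after sham surgery in wild type. Shcbp1 binds the centralspindlin complex at the midbody. Signals of 6.86, 6.38 and 6.84 were measured for Shcbp1 after I/R in TLR4-/-, against 3.99, 3.49 and 4.17 after sham surgery. Wild-type signals were 7.99, 7.50, 7.56 and 7.68 after I/R, against 3.83, 4.17, 3.66 and 3.83 after sham surgery. Its I/R arrays did not overlap the sham arrays, nor did the TLR4-/- I/R arrays overlap the wild-type I/R arrays. The rise was 2.81 ± 0.19 in TLR4-/- (7.01-fold, adjusted p = 9.23e-08) and 3.81 ± 0.16 in wild type (14.0-fold, adjusted p = 5.36e-10). Anln (anillin) links the contractile ring to the membrane. On the TLR4-/- arrays Anln stood at 7.07, 6.84 and 7.0 after I/R, against 3.93, 4.25 and 4.17 after sham surgery. The wild-type arrays gave 7.93, 7.73, 7.57 and 7.27 after I/R, against 4.01, 4.81, 3.82 and 3.88 after sham surgery. The same separation held for Anln. Anln thus rose 7.20-fold in TLR4-/- (log2 change 2.85 ± 0.22, adjusted p = 2.62e-07) and 11.3-fold in wild type (log2 change 3.50 ± 0.19, adjusted p = 2.69e-09). Prc1, which bundles the central spindle, rose by 3.08 in TLR4-/- and 3.03 in wild type (adjusted p = 2.4e-06 and 3.01e-07). Ect2, the exchange factor that switches on RhoA at the division plane, rose by 2.44 in TLR4-/- and 2.61 in wild type (adjusted p = 4.08e-06 and 1.78e-07). Racgap1, a subunit of centralspindlin, rose by 2.15 in TLR4-/- and 2.32 in wild type (adjusted p = 6.34e-06 and 2.81e-07). Cep55, which recruits the machinery that cuts the midbody, rose by 2.84 in TLR4-/- and 3.37 in wild type (adjusted p = 1.42e-06 and 1.82e-08).

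The cohesion and separation subgroup was split. Of its 4 genes, the 2 that establish and protect cohesion rose, while separase and securin did not pass the test in either genotype, and the median was 0.76 in TLR4-/- and 1.20 in wild type. The mean signal of these genes was 6.47 ± 0.07 after I/R, against 5.70 ± 0.14 after sham surgery in TLR4-/-, and 6.80 ± 0.12 after I/R, against 5.62 ± 0.22 after sham surgery in wild type. Esco2 acetylates cohesin during S phase. Esco2 read 6.14, 5.62 and 5.73 in TLR4-/- microglia after I/R, against 4.18, 4.56 and 4.50 after sham surgery. In wild-type microglia Esco2 read 6.59, 6.46, 6.59 and 6.13 after I/R, against 3.91, 3.62, 4.11 and 4.13 after sham surgery. All I/R arrays were above the sham arrays, and the I/R arrays of the 2 genotypes overlapped by 1 wild-type array (D). The rise was 1.42 ± 0.18 in TLR4-/- (2.67-fold, adjusted p = 4.56e-05) and 2.50 ± 0.15 in wild type (5.64-fold, adjusted p = 9.06e-09). Cdca5 (sororin) keeps cohesin on chromatin until mitosis. Signals of 5.69, 5.96 and 5.73 were measured for Cdca5 after I/R in TLR4-/-, against 3.56, 4.35 and 4.55 after sham surgery. Wild-type signals were 6.60, 6.41, 6.28 and 6.18 after I/R, against 4.85, 4.35, 3.77 and 4.67 after sham surgery. Here the TLR4-/- I/R arrays were all below the wild-type I/R arrays. Cdca5 thus rose 3.12-fold in TLR4-/- (log2 change 1.64 ± 0.25, adjusted p = 4.95e-04) and 3.89-fold in wild type (log2 change 1.96 ± 0.22, adjusted p = 1.06e-05).

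Pttg1 (securin) is the inhibitor of separase. On the TLR4-/- arrays Pttg1 stood at 9.03, 8.86 and 8.92 after I/R, against 8.99, 9.08 and 8.93 after sham surgery. The wild-type arrays gave 8.66, 8.81, 8.79 and 8.97 after I/R, against 9.13, 9.04, 8.64 and 9.11 after sham surgery. These signals were far above background in each group, and I/R and sham arrays overlapped in both genotypes. The change was -0.07 ± 0.13 in TLR4-/- (adjusted p = 0.854) and -0.17 ± 0.12 in wild type (adjusted p = 0.412). Espl1 (separase) is the protease that cuts cohesin. Espl1 read 5.33, 5.16 and 5.45 in TLR4-/- microglia after I/R, against 5.40, 5.15 and 5.10 after sham surgery. In wild-type microglia Espl1 read 5.91, 5.65, 5.42 and 5.36 after I/R, against 5.43, 4.76, 5.17 and 5.24 after sham surgery. Its arrays overlapped in both genotypes too. The change was 0.10 ± 0.17 in TLR4-/- (adjusted p = 0.832) and 0.44 ± 0.15 in wild type (adjusted p = 0.0833), and the wild-type change passed the test without wild-type sham array A (adjusted p = 0.0391).

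Among condensin and other chromosome genes, 8 of 9 rose in TLR4-/- and 9 of 9 in wild type, with a median of 1.90 in TLR4-/- and 2.37 in wild type. Averaged over the subgroup, the signal was 7.50 ± 0.11 after I/R, against 5.42 ± 0.20 after sham surgery in TLR4-/-, and 8.02 ± 0.22 after I/R, against 5.51 ± 0.23 after sham surgery in wild type. Mki67 encodes Ki-67, the proliferation antigen that coats mitotic chromosomes. The log2 signal of Mki67 was 8.31, 8.23 and 8.17 on the TLR4-/- I/R arrays, against 4.97, 4.96 and 5.33 on the TLR4-/- sham arrays. On wild-type arrays it was 9.03, 8.40, 8.63 and 8.70 after I/R, against 5.43, 5.07, 4.88 and 5.71 after sham surgery. The I/R arrays stood clear of the sham arrays in both genotypes. The rise was 3.15 ± 0.19 in TLR4-/- (8.87-fold, adjusted p = 4.67e-08) and 3.42 ± 0.17 in wild type (10.7-fold, adjusted p = 1.22e-09). Top2a (topoisomerase II alpha) untangles sister DNA. Top2a read 9.09, 8.85 and 8.85 in TLR4-/- microglia after I/R, against 5.33, 5.09 and 5.82 after sham surgery. In wild-type microglia Top2a read 9.55, 9.22, 9.21 and 9.29 after I/R, against 5.63, 5.86, 4.89 and 6.04 after sham surgery. Again I/R and sham arrays were apart. Top2a thus rose 11.5-fold in TLR4-/- (log2 change 3.52 ± 0.24, adjusted p = 9.23e-08) and 13.1-fold in wild type (log2 change 3.71 ± 0.21, adjusted p = 2.96e-09). A second row for Top2a, with a mean signal of 2.22, changed by 0.44 in wild type.

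Condensin folds mitotic chromosomes, and its shared core subunits and the subunits of condensin I were followed by gene. Smc2, a core ATPase, rose by 1.90 in TLR4-/- and 2.14 in wild type (adjusted p = 5.59e-06 and 1.41e-07). Smc4, the partner ATPase, rose by 1.74 in TLR4-/- and 2.37 in wild type (adjusted p = 9.22e-06 and 2.6e-08). Ncapg, a condensin I subunit, rose by 2.80 in TLR4-/- and 3.13 in wild type (adjusted p = 2.03e-06 and 5.14e-08). Ncapd2, another condensin I subunit, rose by 1.56 in TLR4-/- and 1.90 in wild type (adjusted p = 3.72e-05 and 4.71e-07). Ncaph, the kleisin subunit of condensin I, changed by 0.35 ± 0.17 in TLR4-/- (adjusted p = 0.283) and rose by 0.85 ± 0.15 in wild type (adjusted p = 0.00135). The difference between these Ncaph changes was -0.50 and did not pass the test (adjusted p = 1.000, unadjusted p = 0.0472). Ncapg2, a condensin II subunit, rose by 2.06 in TLR4-/- and 2.75 in wild type (adjusted p = 7.86e-05 and 3.75e-07). Cdca2, which recruits protein phosphatase 1 to chromosomes, rose by 1.69 in TLR4-/- and 2.34 in wild type (adjusted p = 3.91e-05 and 1.03e-07).

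**Figure D2:**
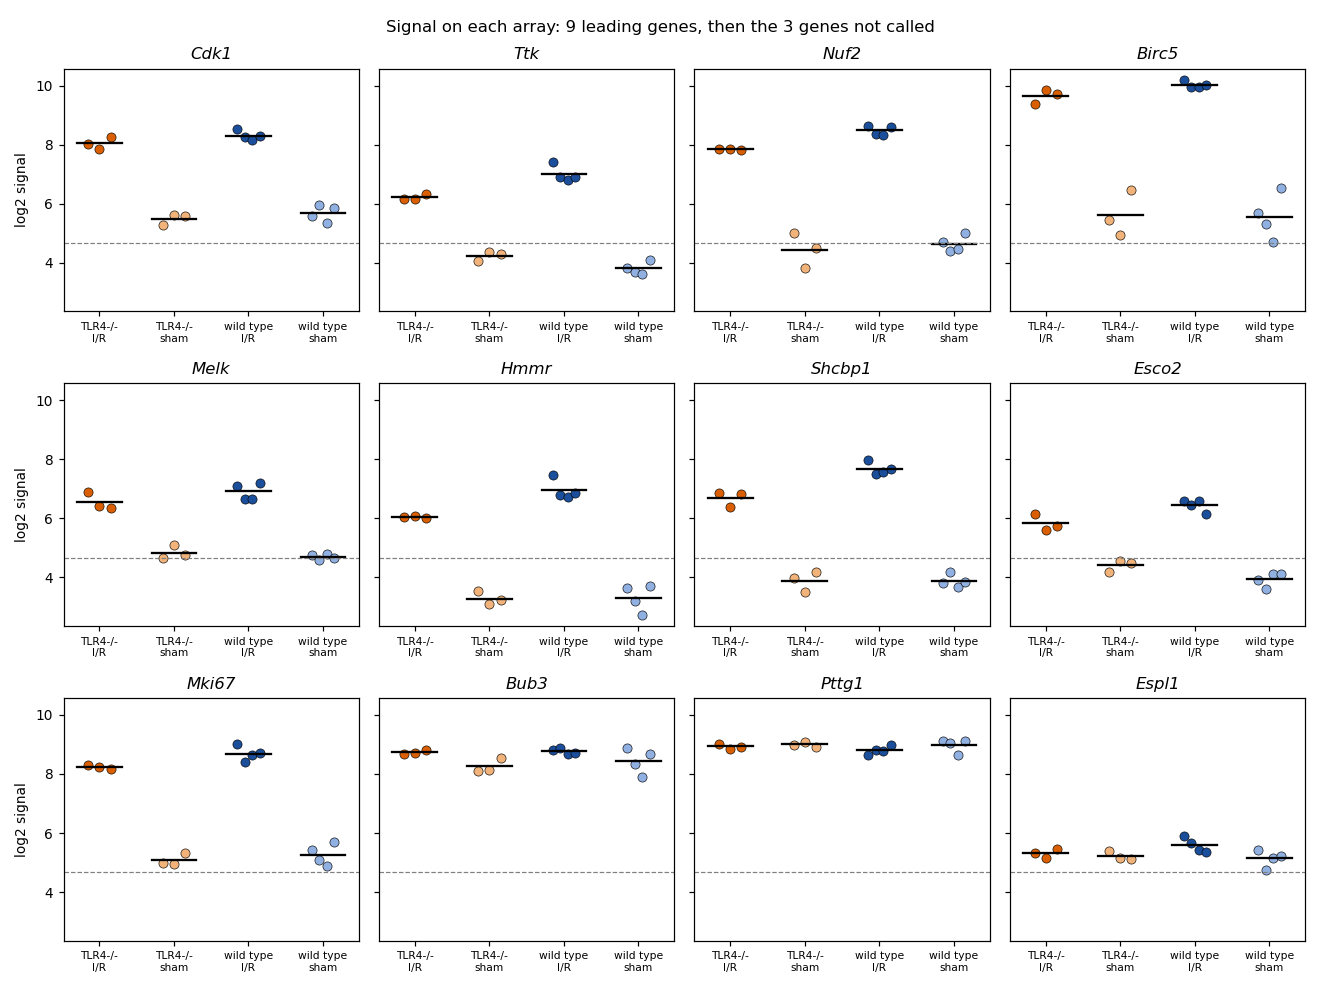
Log2 signal on each array (points) with the group mean (bars) for the gene of smallest p in each of the 9 subgroups and for Bub3, Pttg1 and Espl1; groups run from left to right as TLR4-/- I/R, TLR4-/- sham, wild-type I/R and wild-type sham, and the dashed line is the background stand-in of 4.67. The first 9 genes are separated by surgery in both genotypes, while Pttg1 and Espl1 are not.

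Other genes of the same structures, outside the 56, were counted by list. Of 12 other inner kinetochore genes with a row, 5 rose in TLR4-/- and 9 in wild type, from Cenph (1.93 and 1.99), a subunit of the constitutive network, to Cenpo, which did not pass the test (0.21 and 0.34). Of 15 other outer kinetochore genes, 7 rose in TLR4-/- and 11 in wild type. Knl1, the scaffold that recruits Bub1, rose by 3.03 and 3.59, and Zw10, of the dynein-recruiting complex, changed by -0.18 and 0.05 without passing the test. Among 11 other spindle genes 7 rose in TLR4-/- and all 11 in wild type. Dlgap5, which stabilises spindle microtubules, rose by 3.07 and 3.17, and Gtse1 changed by 0.17 (adjusted p = 0.553) and rose by 0.47 (adjusted p = 0.0166).

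Few genes of the remaining lists passed the test. Neither of the 2 remaining condensin II genes passed the test in either genotype, with changes of 0.35 and 0.38 for Ncaph2 and 0.21 and 0.17 for Ncapd3. Of 9 cohesin genes none was called in TLR4-/- and 1 in wild type, Smc1a, a core ATPase of the ring (0.09 and 0.51). Stag2, another cohesin subunit, had the lowest wild-type change of that list (-0.48 and -0.25, neither called). In the list of 13 APC/C subunits and regulators, 3 rose in TLR4-/-, and 2 rose and 2 fell in wild type. Fbxo5 (Emi1), an APC/C inhibitor, rose by 1.08 in TLR4-/- and 1.43 in wild type, while Cdc23, a core subunit, changed by -0.24 in TLR4-/- without passing the test and fell in wild type (log2 change -0.48). Of 6 transcription regulators, 2 rose in each genotype. Foxm1, a transcription factor of G2 and M phase genes, rose by 2.15 in TLR4-/- and 2.31 in wild type, and Mybl2 (B-MYB) changed by 0.29 and 0.37 without passing the test (adjusted p = 0.296 and 0.0859). Lin52, a subunit of the DREAM complex, had the lowest wild-type change (-0.12 and -0.29, neither called).

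**Figure D3:**
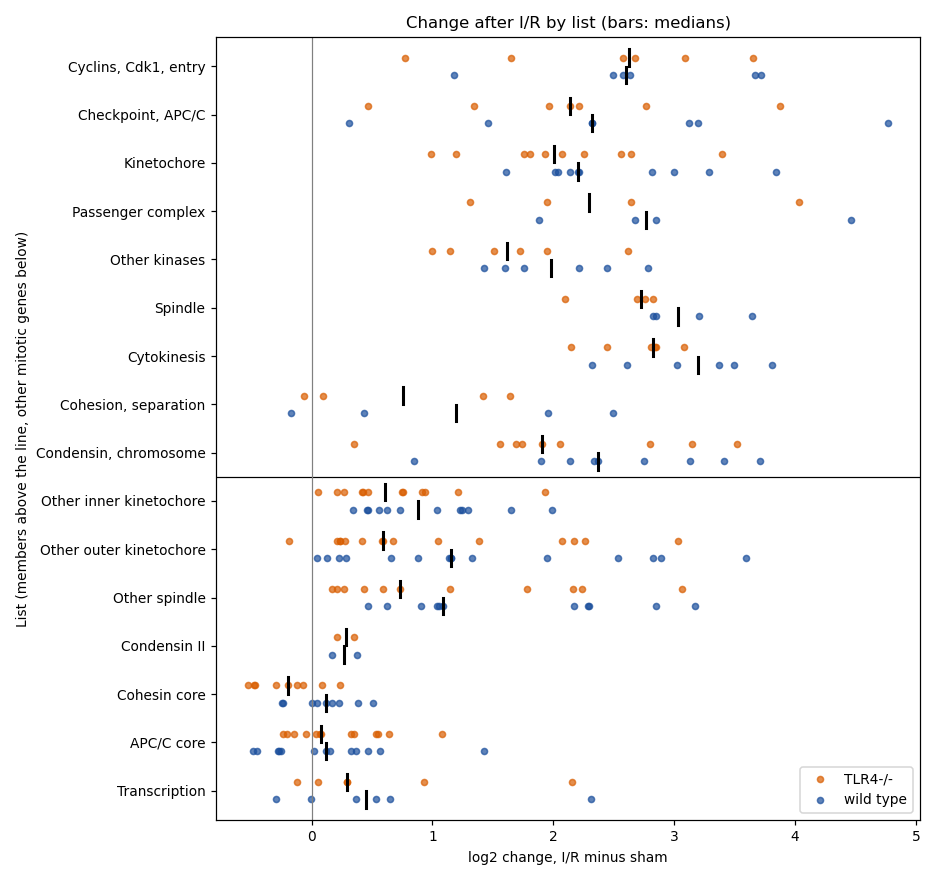
Log2 change after I/R of each gene (points) and the median of each list (bars) in TLR4-/- (orange) and wild type (blue); the 9 subgroups of the 56 genes are above the line and the lists of other mitotic genes below it. Medians of the 9 subgroups lie between 0.76 and 3.20, and those of the condensin II, cohesin and APC/C core lists lie between -0.19 and 0.28.

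Markers of other cells that a microglial sort could hold were measured on the same arrays. Of 8 monocyte and macrophage markers 6 rose in TLR4-/- and 7 in wild type after I/R, with list means of 6.85 to 6.91 after I/R, against 4.52 to 4.70 after sham surgery in TLR4-/-, and 6.93 to 7.48, against 4.72 to 4.95, in wild type. Fn1 rose by 5.40 in TLR4-/- and 5.53 in wild type, Vim by 2.91 and 3.20, and the monocyte chemokine receptor Ccr2 changed by -0.22 and 0.41 without passing the test. Of 9 microglia markers 5 fell in TLR4-/- and 7 in wild type, against 624 and 724 of all 19938 genes. Their list means were 10.89 to 11 after I/R, against 11.31 to 11.45 after sham surgery in TLR4-/-. In wild type they were 10.85 to 11.09, against 11.29 to 11.42. The part of either change in the rise of the mitotic genes was not tested. Within the lists of neutrophil precursors, T and NK cells, and B cells no marker was called in either genotype, and their list means over all arrays were 4.24 to 4.48, 3.68 to 3.95 and 4.46 to 4.88. The neutrophil list averaged 3.53 to 3.79 after I/R, against 3.56 to 3.87 after sham surgery in TLR4-/-. In wild type it averaged 3.38 to 4.60 after I/R, with array C the highest, against 3.53 to 3.85 after sham surgery, and 1 of 8 of its markers rose, Cxcr2 in wild type, at a mean below the background stand-in. Of 6 oligodendrocyte lineage markers none was called in TLR4-/- and Cspg4 alone rose in wild type (log2 change 0.65). Of the 5 astrocyte markers 1 fell in each genotype, of the 6 endothelial and pericyte markers 1 fell in each genotype and 2 rose in wild type, and the 1 erythroid marker with a row was not called.

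**Figure D4:**
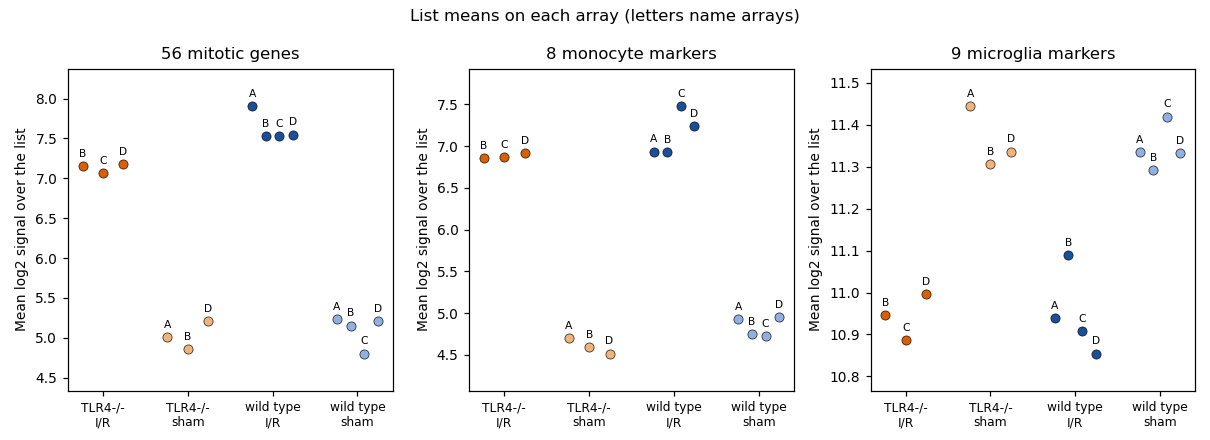
Mean log2 signal of the 56 mitotic genes, 8 monocyte markers and 9 microglia markers on each array (points, with array letters), with TLR4-/- I/R, TLR4-/- sham, wild-type I/R and wild-type sham from left to right; vertical axes differ between panels and do not start at 0. Mitotic genes and monocyte markers were higher and microglia markers lower on each I/R array than on each sham array.

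The TLR4-/- arm asked whether the response depended on the receptor, which the difference of changes, given further below, addresses. The genotypes were first compared after I/R alone, which includes any difference already present after sham surgery. After I/R no mitotic gene passed the test between TLR4-/- and wild type at an adjusted p under 0.05 in limma (0.0201% of all genes did), but 55 of the 56 were lower in TLR4-/-, against 44.1% of all genes. The median difference was -0.49, and the smallest adjusted p was 0.103, for Shcbp1 (log2 difference -0.99 ± 0.18). At an unadjusted p under 0.05 there were 33 genes lower and none higher (58.9% of the set, against 3.24% of all genes that were lower at that p), and for 29 each TLR4-/- array was below each wild-type array (3.20% of all genes). The exception in direction was Pttg1, with a difference of 0.13. Genes measured on shared arrays are not independent, and the set was chosen with earlier results of these data known. These counts thus describe the arrays and are not a test of the set.

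Behind Shcbp1, the gene with the next smallest p was Ttk, at -0.79 ± 0.15 (adjusted p = 0.137). Aspm differed by -0.96 (adjusted p = 0.298), Hmmr by -0.92 (adjusted p = 0.379), Spc24 by -0.60 (adjusted p = 0.379) and Spc25 by -0.72 (adjusted p = 0.379). By subgroup the median difference after I/R was -0.73 for the spindle, -0.65 for the kinetochore, -0.65 for cytokinesis, -0.45 for condensin and chromosome genes, -0.42 for cohesion, -0.36 for the passenger complex, -0.35 for the checkpoint, -0.33 for the other kinases and -0.29 for mitotic entry. Cdk1 differed by -0.25 (unadjusted p = 0.124) and Mki67 by -0.45 (unadjusted p = 0.0242). No subgroup was tested against another.

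The difference was smaller without 1 of the wild-type arrays. Wild-type I/R array A had the highest signal of its group for 48 of the 56 genes, and its mean over the set was 7.91, against 7.53, 7.53 and 7.55 on arrays B, C and D. Without it 55 genes were still lower in TLR4-/-, the median difference was -0.38, and 21 genes were lower at an unadjusted p under 0.05. Leaving out TLR4-/- I/R array C instead gave a median of -0.44 and 24 genes lower at that p. Leaving out TLR4-/- I/R array B or D gave medians of -0.53 and -0.51, with 28 genes each. Array A did not stand out in the monocyte list, where its mean of 6.93 was among the 2 lowest of the wild-type I/R arrays. That list was lower on each TLR4-/- I/R array (6.85 to 6.91) than on each wild-type I/R array (6.93 to 7.48). It was also lower on each TLR4-/- sham array (4.52 to 4.70) than on each wild-type sham array (4.72 to 4.95). Of its 8 markers, 3 were higher in TLR4-/- after I/R and 0 after sham surgery. The part of this list in the difference of the mitotic genes was not tested. With array weights in the fit 1 gene, Shcbp1, passed the test (adjusted p = 0.0336).

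**Figure D5:**
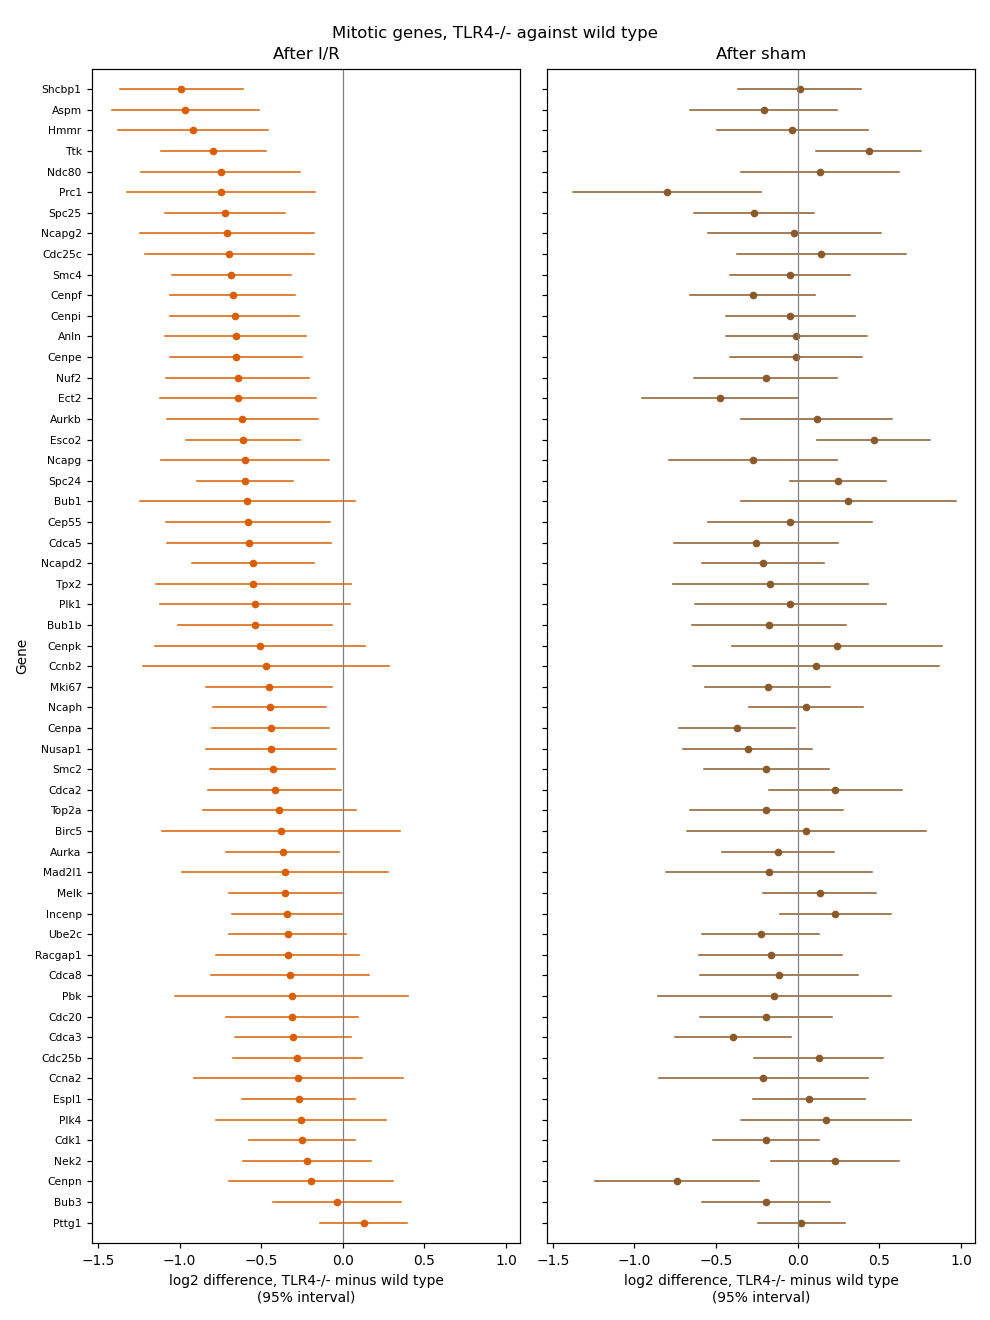
Log2 difference between TLR4-/- and wild type with its 95% interval for each of the 56 genes after I/R (left) and after sham surgery (right), in the order of the difference after I/R. After I/R 55 points lie below 0, and after sham surgery the points lie on both sides of 0 with a median of -0.08.

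After sham surgery no mitotic gene passed the test between TLR4-/- and wild type (0.00502% of all genes were called), 36 were lower and 20 higher in TLR4-/- (64.3% lower, against 46.6% of all genes), and the smallest adjusted p was 0.920. In limma at an unadjusted p under 0.05, 5 were lower (8.93%, against 2.37% of all genes) and 2 higher (2.87% of all genes were). The 5 were Prc1 (-0.80), Cenpn (-0.74), Ect2 (-0.48), Cdca3 (-0.40) and Cenpa (-0.37). The 2 that were higher were Esco2 (0.47) and Ttk (0.43), and for both of these, as for Prc1, the sham means of both genotypes were at or below the background stand-in.

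The change after I/R was then compared between genotypes, as the TLR4-/- change minus the wild-type change. No mitotic gene passed the test in limma (0% of all genes did), and the smallest adjusted p was 0.382. The difference was below 0 for 51 of 56 genes, against 46.6% of all genes, with a median of -0.42, and 16 genes were below 0 at an unadjusted p under 0.05 (28.6%, against 1.83% of all genes). Without TLR4-/- sham array D, which had the highest signal of its group for 30 of the 56 genes, that number was 9. The largest differences were those of Ttk (-1.23 ± 0.21, unadjusted p = 2.93e-05), Esco2 (-1.08 ± 0.23, unadjusted p = 2.60e-04) and Shcbp1 (-1.0 ± 0.25, unadjusted p = 0.00106). The sham means of these 3 genes were at or below the background stand-in in both genotypes, so their sham differences (0.43, 0.47 and 0.01), which enter the difference of changes, compare background signals. The same held for 9 of the 16 genes in all, while 6 had sham means above it in both genotypes and 1 in TLR4-/- alone. Cdk1, with a difference of changes of -0.06, Top2a (-0.20) and Mki67 (-0.27) did not pass the test, and their 95% intervals ran from -0.52 to 0.41, from -0.86 to 0.47 and from -0.81 to 0.28.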

How the data were processed

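The deposited table holds log2 values, 1 per array row and sample, which the authors made with RMA in the oligo package per the submitters' processing notes; no version was given in the sources used here. RMA corrects background, brings arrays to a common distribution and summarises probes, and it gives no detection call. Of 35556 rows, 21789 carried 1 gene symbol in the platform annotation, 1621 several and 12146 none; only the rows with 1 symbol were used, and the highest-mean row stood for its gene.

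A single fit of 4 group means to all 14 arrays was made with lmFit and eBayes of limma (version 3.58.1, R 4.3.3), which the series text names. Adjusted p-values are Benjamini-Hochberg over all 19938 genes, and a gene was called at an adjusted p under 0.05. Changes are given ± SE, and group means of a subgroup over arrays ± SD. The 5 contrasts set I/R against sham surgery within each genotype, the TLR4-/- change against the wild-type change, and the genotypes against each other within each operation. The fits were tested on simulated data.

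The members, subgroups and lists were chosen with earlier results of these data known. Values of each array were given for the 2 genes of smallest wild-type I/R p in each subgroup and for genes not called there; of other lists, the highest and lowest wild-type change, Foxm1 and Mybl2 were named. Other genes and markers named beside these, and the genes named for their genotype difference, were chosen after their values were seen. Array letters were checked for pairing: over 18 same-letter pairs the correlation of deviations from group means ran from -0.10 to 0.28, so the letters were not taken as pairs. Sequences are from RefSeq, GRCm38.p6. Arrays have no sequencing depth, and their number limits the precision.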

Additional observations from a re-analysis of the deposited data

Results flagged for a closer look

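In the 112 sets of 4 wild-type arrays formed by the 56 genes in each surgery group, 9 had an array at a distance from the other 3 that exceeded Dixon's 95% limit, and chance alone flags about 1 in 20 such sets. Groups of 3 arrays were not examined in this way. Array A of wild-type I/R was above the rest for Ttk (7.41), Cenpf (7.92), Cep55 (7.75) and Smc4 (8.81). Array C of wild-type sham was below the rest for Bub1 (2.55) and Ncapg2 (3.16). Wild-type sham array A stood out for Spc24 (4.41) and Cep55 (4.69), and wild-type sham array D for Aurkb (6.07).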

How the results depend on the processing

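In the I/R comparisons none of the alternatives reversed a gene. They were array centring, only the groups compared, trend and robust eBayes, array weights, leaving out dim genes, all rows of a gene, a replicate block, leaving out both arrays that stood apart, and leaving out each array. Leaving out 1 array at a time, 50 to 52 genes were called in TLR4-/- and 53 to 54 in wild type, with medians of 2.03 to 2.20 and 2.45 to 2.61. With the letter as replicate block 51 were called in TLR4-/-, where Cdc25b was lost (adjusted p = 0.0776), and 54 in wild type, where Espl1 was gained (adjusted p = 0.0432). Between the genotypes after I/R, array weights gave 1 called gene and the other alternatives 0. Genes lower at an unadjusted p under 0.05, counted after the data were seen, numbered 21 to 36 when 1 array was left out and 29 with the replicate block. For the difference of changes they numbered 9 to 19 when 1 array was left out, 12 with the replicate block and 10 without both arrays that stood apart. Without both of those arrays Cdc25b was not called in TLR4-/- (adjusted p = 0.0639). The causes of these changes were not tested. A fit of only the groups compared gives no separate difference of changes. With 3 or 4 arrays a group, and sham signals near background for about 20 genes, small fold changes are poorly resolved.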
